A study of Saccharomyces cerevisiae with 22 samples.

Results

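The genes followed here are 37 of the 5449 budding yeast genes measured, those of sulfur assimilation, methionine and cysteine synthesis, S-adenosylmethionine synthesis, methionine uptake and their regulators. They were taken by gene symbol from the array's annotation, by a rule with no threshold on measured values, and each of the 37 was read by 1 probe set. Yeast takes sulfate up through permeases, activates it with ATP, reduces it to sulfite and then to sulfide, and joins the sulfide to a carbon chain made from aspartate by way of homoserine. The product, homocysteine, is methylated to methionine, exchanged with cysteine by transsulfuration, or supplied from methionine and related compounds in the medium. The activator Met4, held on promoters by Cbf1 or by Met31 and Met32 and restrained by the ubiquitin ligase subunit Met30, is known to turn most of these genes on when sulfur amino acids run short.

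Total RNA was measured on 22 Affymetrix arrays, all from the strain labelled 4741 grown in rich medium (YPD) at 30 °C to mid-log phase. Of these arrays, 2 were untreated, 2 were from cells at 40 °C and 2 from cells in 0.8 M KCl (30 and 45 min each), and 4 were from cells in 0.66 mM hydrogen peroxide with no earlier stress (15, 30, 45 and 90 min), called naive. Cells held for 45 min at 40 °C or in KCl were then moved to the same peroxide dose (4 arrays after each stress, at 15, 30, 45 and 90 min) or to rich medium (2 arrays after each, at 15 and 45 min). Each condition and time had 1 array, so the untreated pair was the only repeat, and in every group of 2 below the spread between arrays includes a change of time or of medium. Separate cultures are not stated, and every p-value here reflects how far these arrays differ, which may be technical.

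The median log2 level of an array ranged from 10.16 to 10.22. Background, the 95th percentile of probe sets whose annotation gives no gene of the S. cerevisiae reference set, was 4.62. The untreated arrays differed by a median of 0.0892 and by at most 0.308 among the 37 genes, and over all genes the standard deviation of the difference was 0.142. As a check on cell type, the a-specific genes MFA1 and STE2 were at 11.81 or more and 12.46 or more on every array, and of 4 alpha-specific genes MF(ALPHA)1, the main alpha pheromone gene, was below background on all 22. The other alpha-specific genes were above it on all 22, with levels of 4.95 to 7.45 for MF(ALPHA)2, 6.15 to 8.15 for STE3 and 8.24 to 8.84 for SAG1. MET17, URA3 and LEU2, which are deleted in the laboratory strain BY4741, peaked at 4.80, 3.86 and 4.86, near or below background. HIS3, also listed as an auxotrophy marker of that background, did not go the same way. It was above background on all 22 arrays, as was LYS2. MET17 belongs to the homoserine branch of the genes followed here, and whether these cells carried sulfate through to methionine was not tested.

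Values below are log2 ratios, the log2 level on an array minus the mean of the untreated pair, unless called levels. By this definition the untreated arrays sat within 0.154 of 0 for all 37 genes. Values of the first stresses are in the order 30 and 45 min, those of rich medium 15 and 45 min, and those of peroxide 15, 30, 45 and 90 min. Where RNA of a whole culture is measured, fewer cells carrying a transcript and less transcript per cell cannot be told apart.

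By their median across the conditions, the genes were highest shortly after heat and lowest during KCl. Of the 37 genes, 13 had their highest value on the array of 15 min in rich medium after heat, and 7 on that of 30 min in peroxide after heat. The lowest value fell at 45 min of KCl for 8 genes, at 15 min of peroxide after KCl for 8, and at 45 min in rich medium after heat for 7. These counts were not made for all 5449 genes, so they cannot be called particular to the 37. The median log2 ratio of the 37 was 0.54 at 15 min in rich medium after heat (interquartile range 0.92), 0.27 and 0.55 at 15 and 30 min in peroxide after heat (0.71 and 1.19), and 0.24 at 30 min in naive peroxide (0.96). It was -0.25 and -0.27 in KCl, and -0.18 and -0.16 at 15 min in peroxide and in rich medium after KCl. Late after heat it was about as low, at -0.20 at 90 min in peroxide and -0.17 at 45 min in rich medium. On all other arrays it was within 0.21 of 0. The median over all 5449 genes stayed between -0.09 and 0.11 on every array.

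**Figure D1:**
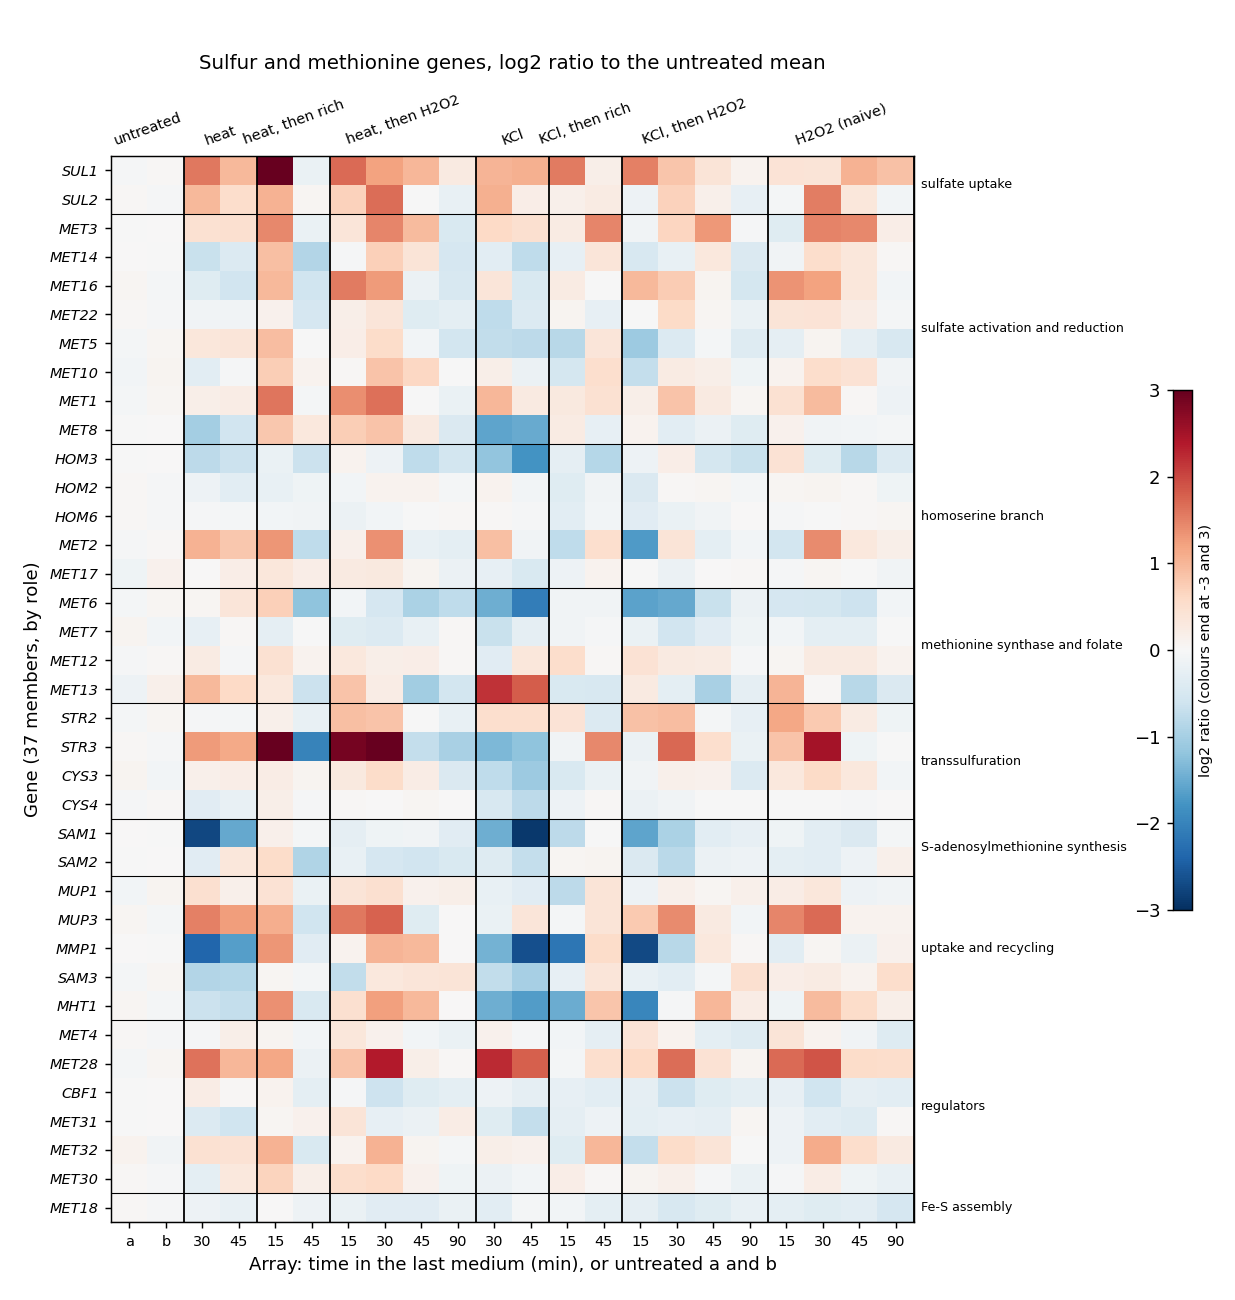
Heat map of the log2 ratio to the untreated mean for the 37 genes (rows, grouped by role) on the 22 arrays (columns, labelled by time in the last medium in minutes). Red is higher and blue lower than untreated, with colours ending at -3 and 3; the columns of 15 min after heat are mostly red, and those of KCl and of 15 min in peroxide after KCl hold most of the deep blue.

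The number of genes at least 2-fold above the untreated mean did not follow the medians throughout. It was 11 at 15 min in rich medium after heat, where 3.27% of all genes were that high, and 12 at 30 min in peroxide after heat, against 4.42% of all genes. At 15 min in peroxide after heat it was 5 (4.99% of all genes), as it was at 30 min of heat, where 15.7% of all genes were that high. Naive peroxide had 5 such genes at 15 min (3.29% of all genes) and 8 at 30 min (8.19%). At 45 min of KCl 8 of the 37 were at least 2-fold below the untreated mean, as were 13.9% of all genes.

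Early recovery from heat was first set against untreated cells, by averaging the arrays of 15 min in rich medium and 15 min in peroxide after heat. Both sulfate permease genes and both siroheme genes rose, as did the transsulfuration gene STR3 and the methionine permease gene MUP3, and MET16 and MET5 rose among the other 6 genes of sulfate activation and reduction. With limma, 11 of 37 genes rose and 0 fell at an adjusted p under 0.05, where 9.69% of all genes rose and 13.1% fell (22.8% in either direction). The median difference was 0.41 on the log2 scale for the 37 genes and -0.04 for all genes. The 11 were STR3, SUL1, MET1, MUP3, MET16, MET28, SUL2, MET8, MET30, MET5 and STR2. Without untreated array a or untreated array b, which left 1 untreated array, fewer of the 37 and fewer of all genes passed. The median difference was then 0.34 and 0.45 for the 37 genes and -0.04 and -0.03 for all genes.

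SUL1 and SUL2 encode the sulfate permeases. SUL1 was below background in untreated cells, with a mean level of 4.39. Its log2 ratio was 1.58 and 0.97 in heat, 3.57 and -0.19 in rich medium after heat, and 1.70, 1.20, 0.996 and 0.26 in peroxide after heat. After KCl at 1.02 and 1.06 it was 1.57 and 0.18 in rich medium and 1.51, 0.84, 0.38 and 0.11 in peroxide, and in naive peroxide it was 0.42, 0.40, 1.04 and 0.87. SUL1 was the only one of the 37 genes for which both arrays at 15 min after heat lay above all other 20 arrays, a pattern that 4.7% of all genes showed, and no member had both below, against 4.81%. Since the untreated level was below background, SUL1 was at least 5.33-fold higher at 15 min after heat than in untreated cells (adjusted p = 0.0238, limma), and at least 2.49-fold higher at 15 min after KCl, where it did not pass the test. SUL2 stood at 1.05 and 0.68 at 15 min after heat and rose by 0.86 ± 0.11 (SE, n = 2 arrays per group, adjusted p = 0.00446). Without the rich medium array SUL1 no longer passed (log2 difference 1.48, adjusted p = 0.054), nor did it without untreated array a (adjusted p = 0.13) or b (adjusted p = 0.111).

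In sulfate activation and reduction, 4 of 8 genes rose. MET1, which with MET8 makes siroheme, the cofactor of sulfite reductase, had the smallest adjusted p of the 37. Its log2 ratio was 0.19 and 0.23 in heat, 1.60 and -0.05 in rich medium after heat, and 1.40, 1.66, -0.01 and -0.20 in peroxide after heat. In KCl it was 0.99 and 0.28, then 0.28 and 0.46 in rich medium and 0.18, 0.86, 0.28 and 0.05 in peroxide, and naive peroxide gave 0.45, 0.95, 0.05 and -0.15. The arrays at 15 min after heat and that of 30 min in peroxide after heat were thus the 3 highest for MET1. Against untreated cells it rose by 1.499 ± 0.102 (2.83-fold, adjusted p = 0.00071). MET8 was at 0.81 and 0.75 on the arrays of 15 min after heat (difference 0.78 ± 0.09, adjusted p = 0.00407).

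MET16, the reductase that turns activated sulfate (PAPS) into sulfite, stood at 0.97 and 1.56 at 15 min after heat and rose by 1.27 ± 0.16 (adjusted p = 0.00446). MET5 and MET10 encode the subunits of sulfite reductase. MET5 was at 0.35 and 0.37 in heat, 0.92 and -0.02 in rich medium after heat, and 0.20, 0.55, -0.09 and -0.56 in peroxide after heat. It was at -0.74 and -0.78 in KCl, -0.82 and 0.37 in rich medium after KCl, -1.10, -0.42, -0.06 and -0.39 in peroxide after KCl, and -0.28, 0.09, -0.26 and -0.48 in naive peroxide. All 4 arrays of heat and of 15 min after heat lay above 0 for MET5, and all 4 of KCl and of 15 min after KCl below -0.7. MET10 was at -0.32 and -0.02 in heat, 0.74 and 0.10 in rich medium after heat and 0.03, 0.86, 0.63 and -0.01 in peroxide after heat. Its other values were 0.16 and -0.17 in KCl, -0.52 and 0.50 in rich medium after KCl, -0.71, 0.26, 0.17 and -0.13 in peroxide after KCl, and 0.11, 0.54, 0.44 and -0.12 in naive peroxide. MET10 did not pass against untreated cells, and its 2 arrays of 15 min after heat lay far apart. The ATP sulfurylase gene MET3 and the APS kinase gene MET14 also differed between those arrays, at 1.44 and 0.36 and at 0.90 and -0.03, and neither passed; MET22, the phosphatase that clears the nucleotide by-product of the pathway, was at 0.13 and 0.17.

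STR3 encodes cystathionine beta-lyase, which makes homocysteine on the way from cysteine to methionine. Its untreated level was 7.89, and its log2 ratios of 1.27 and 1.14 in heat were followed by 3.36 and -2.01 in rich medium and by 2.87, 3.22, -0.72 and -0.98 in peroxide. In KCl it was at -1.35 and -1.20, then at -0.10 and 1.44 in rich medium and at -0.18, 1.73, 0.49 and -0.20 in peroxide. Naive peroxide gave 0.85, 2.50, -0.12 and 0.00. STR3 had the widest range of the 37 genes over the 20 treated arrays, 5.37 on the log2 scale, between 15 and 45 min in rich medium after heat. At 15 min after heat it rose by 3.12 ± 0.46 against untreated cells (8.68-fold, adjusted p = 0.00621), and without either untreated array its adjusted p was 0.058. The other transsulfuration genes moved less: STR2, cystathionine gamma-synthase, rose by 0.53 ± 0.14 (adjusted p = 0.0387), and CYS3 and CYS4, which make cysteine from homocysteine, did not pass.

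MUP3 encodes a low-affinity methionine permease. It was at 1.51 and 1.25 in heat, 1.10 and -0.60 in rich medium after heat, and 1.58, 1.76, -0.35 and 0.01 in peroxide after heat. On the KCl arrays it was at -0.20 and 0.35, then at -0.06 and 0.39 in rich medium and at 0.78, 1.42, 0.27 and -0.09 in peroxide, and naive peroxide gave 1.46, 1.70, 0.10 and 0.10. High values came in heat, early after heat and in the first 30 min of peroxide, with or without an earlier stress. MUP3 rose by 1.34 ± 0.21 at 15 min after heat (2.53-fold, adjusted p = 0.00737), and MUP1, the high-affinity methionine permease, stood at 0.44 and 0.38 and did not pass.

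**Figure D2:**
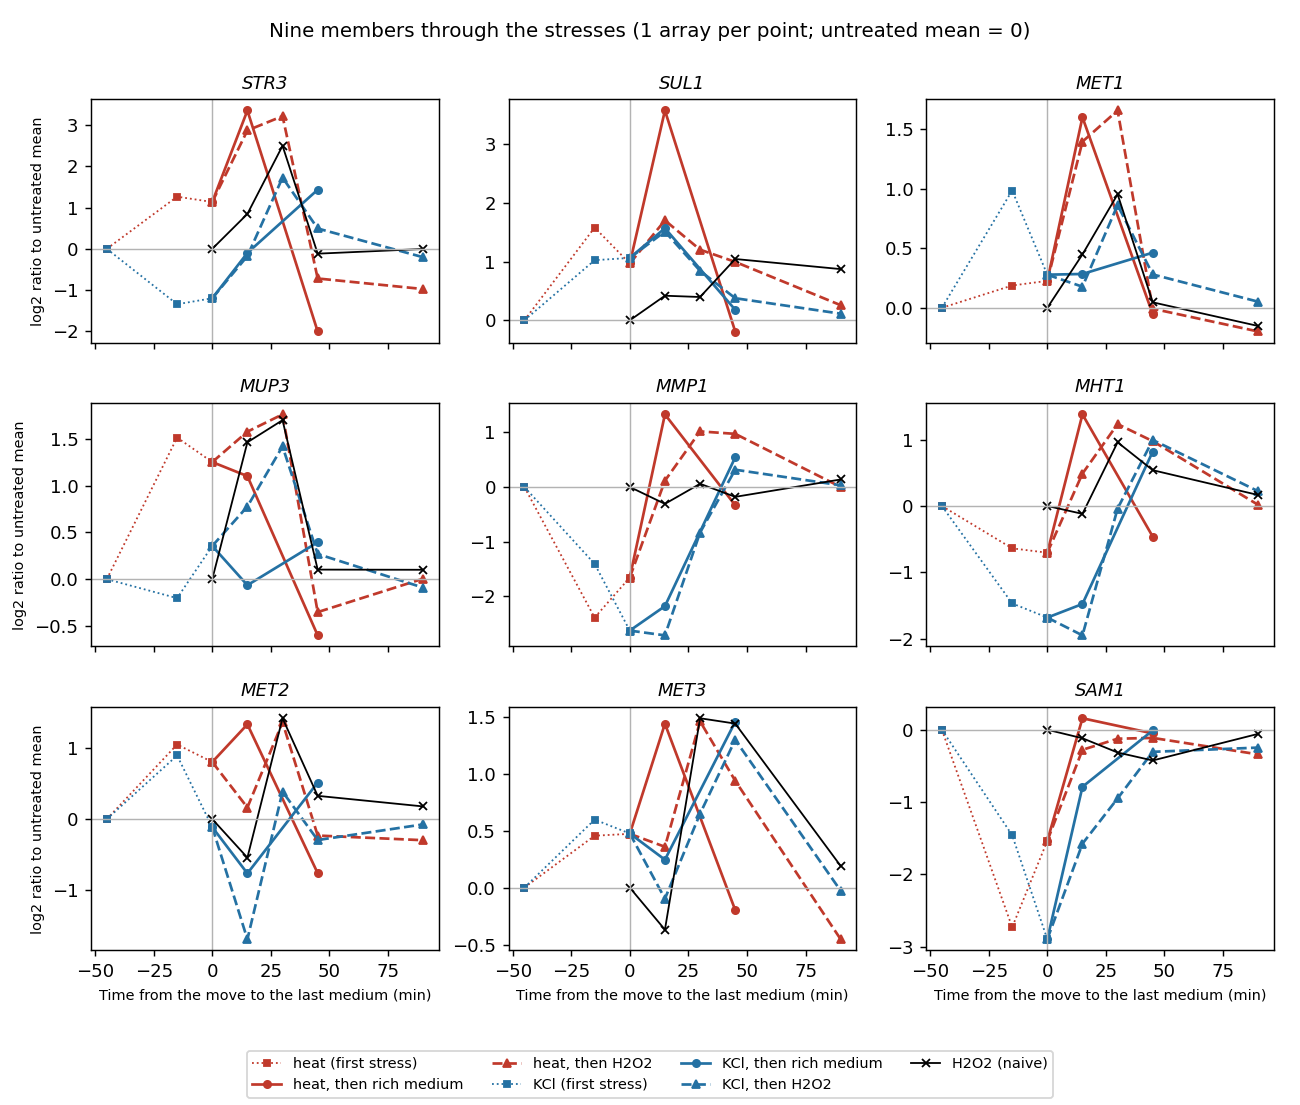
Log2 ratio to the untreated mean (y axis, scaled per panel) against minutes from the move to the last medium (x axis; the first stress ends at 0) for 9 genes, with 1 array per point. Red lines are cells stressed with heat, blue with KCl, solid in rich medium, dashed in peroxide and black naive peroxide; after heat STR3 went from 3.36 to -2.01 between 15 and 45 min in rich medium, while MMP1 after KCl went from -2.18 to 0.54.

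The early values after heat were then tested directly against those at 15 min after KCl. Here 20 of 37 genes were higher after heat and 0 lower, against 14.2% and 13.4% of all genes (27.6% either way). The median difference was 0.66 on the log2 scale, and 0.04 over all genes. By role, 5 of 8 genes of sulfate activation and reduction, 4 of 5 of uptake and recycling and 5 of 6 regulators were higher. STR3 (3.25 ± 0.46, 9.54-fold, adjusted p = 0.00475) had the largest positive difference of all 5449 genes. Leaving out an array left 1 in its group, and fewer of the 37 and fewer of all genes passed. The median difference of the 37 was then 0.65 (peroxide) and 0.44 (rich medium) without a 15 min array after heat. Without a 15 min array after KCl it was 0.63 (peroxide) and 0.49 (rich medium). The 15 min arrays after KCl also carried lower a-specific genes and higher meiosis genes than untreated cells. In the tested lists 6 of 6 a-specific genes fell, and of 5 meiosis genes 4 rose and 1 fell. Against untreated cells 16.3% of all genes rose and 22.2% fell at that time. Summed over their list, the a-specific genes reached 15.26 to 15.32 in untreated cells, 14.30 to 14.54 in heat, 14.27 to 14.43 in KCl, 14.09 to 15.09 in peroxide after KCl and 14.57 to 14.78 in rich medium after KCl on the log2 scale. The same sum was 14.69 to 15.32 and 15.12 to 15.27 in peroxide and in rich medium after heat. The sum of the meiosis genes was 9.60 to 9.79 in untreated cells, 10.22 to 10.56 in heat and 12.35 to 12.85 in KCl. It was 9.80 to 13.06 and 9.75 to 12.69 in peroxide and rich medium after KCl, and 9.80 to 10.64 and 9.63 to 9.81 after heat. The part of these differences in the result was not tested.

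The next largest differences were those of genes for the use of S-methylmethionine, a methyl-rich relative of methionine found in plants. MMP1, its permease, was at -2.39 and -1.66 in heat, 1.33 and -0.33 in rich medium after heat, and 0.11, 1.02, 0.97 and 0.00 in peroxide after heat. In KCl it was at -1.41 and -2.63, then at -2.18 and 0.54 in rich medium and at -2.71, -0.83, 0.32 and 0.03 in peroxide, while naive peroxide gave -0.31, 0.06, -0.18 and 0.14. MMP1 was thus low in both first stresses, and at 15 min it was above the untreated mean after heat and still low after KCl. The difference was 3.17 ± 0.50 (8.98-fold, adjusted p = 0.00702). Without the 15 min array of peroxide after KCl its adjusted p was 0.051.

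MHT1, which methylates homocysteine with S-methylmethionine, lies beside MMP1 in the genome by locus number (YLL062C and YLL061W). It was at -0.64 and -0.70 in heat, 1.38 and -0.46 in rich medium after heat, and 0.49, 1.23, 0.98 and 0.02 in peroxide after heat. On the KCl arrays it was at -1.47 and -1.68, then at -1.48 and 0.82 in rich medium and at -1.95, -0.04, 0.99 and 0.22 in peroxide, with -0.12, 0.96, 0.54 and 0.17 in naive peroxide. Like MMP1, MHT1 was lower than untreated at 15 min after KCl on both arrays and higher at 15 min after heat on both. The difference was 2.65 ± 0.48 (6.27-fold, adjusted p = 0.0108).

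MET2, homoserine O-acetyltransferase, which opens the methionine branch from homoserine, had values of 1.05 and 0.80 in heat, 1.33 and -0.76 in rich medium after heat, and 0.16, 1.36, -0.23 and -0.30 in peroxide after heat. In KCl it was at 0.89 and -0.11, then at -0.76 and 0.51 in rich medium and at -1.69, 0.39, -0.29 and -0.07 in peroxide. Naive peroxide gave -0.54, 1.42, 0.33 and 0.18. At 15 min MET2 was above the untreated mean on both arrays after heat and below it on both after KCl, a difference of 1.97 ± 0.36 (adjusted p = 0.0112). The other genes of that branch, HOM3 (aspartate kinase), HOM2 and HOM6, did not pass here. MET17, near or below background throughout, could not show a difference and adds nothing to any count of genes that did not pass. HOM2 and HOM6 kept within 0.42 of the untreated mean on all arrays.

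MET6 encodes methionine synthase, which methylates homocysteine with a folate methyl group. MET6 was at 0.05 and 0.36 in heat, 0.71 and -1.22 in rich medium after heat, and -0.09, -0.51, -0.95 and -0.76 in peroxide after heat. On the KCl arrays it was at -1.47 and -2.08, then at -0.11 and -0.11 in rich medium and at -1.61, -1.53, -0.66 and -0.18 in peroxide, and naive peroxide gave -0.50, -0.52, -0.63 and -0.08. At 15 min both media gave a higher value after heat than after KCl. The difference of 1.16 ± 0.35 had an adjusted p of 0.048, close to the threshold.

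SAM1, an S-adenosylmethionine synthetase, was at -2.73 and -1.54 in heat, 0.16 and -0.05 in rich medium after heat, and -0.28, -0.12, -0.11 and -0.34 in peroxide after heat. It was at -1.46 and -2.90 in KCl, -0.79 and -0.01 in rich medium after KCl, -1.58, -0.95, -0.31 and -0.25 in peroxide after KCl, and -0.12, -0.32, -0.43 and -0.06 in naive peroxide. At 15 min SAM1 was near the untreated mean after heat and below it after KCl (difference 1.12 ± 0.16, adjusted p = 0.00532). SAM2, the gene of the other synthetase, was at 0.54 and -0.22 after heat and 0.05 and -0.44 after KCl at that time, and did not pass.

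**Figure D3:**
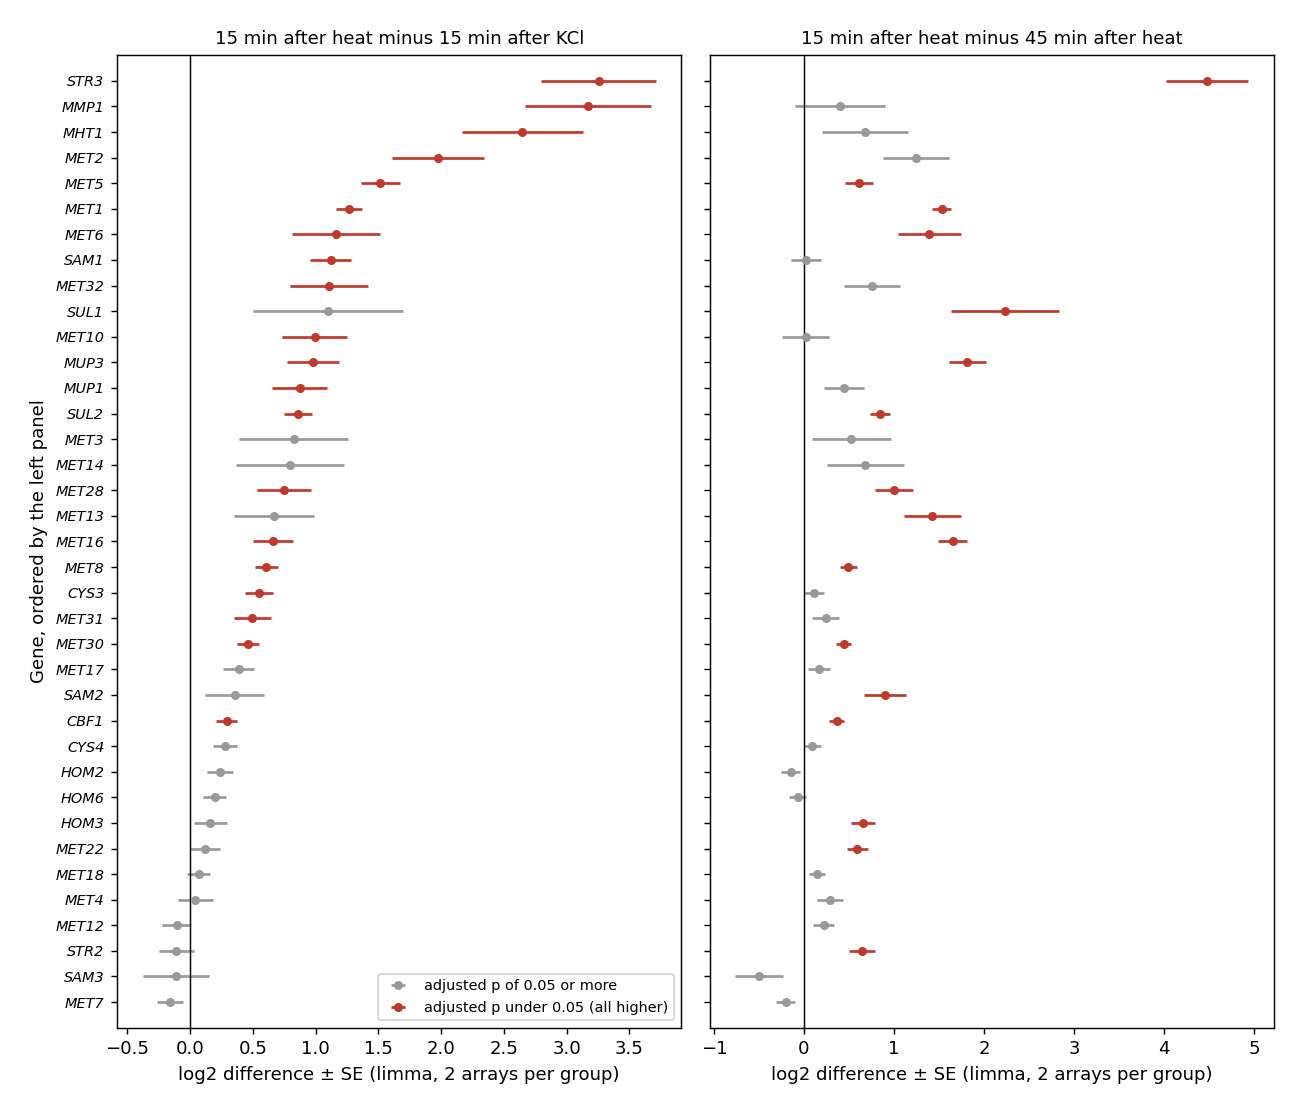
Log2 difference ± SE (x axis, limma) for each of the 37 genes (y axis, ordered by the left panel): 15 min after heat minus 15 min after KCl on the left, and 15 minus 45 min after heat on the right, with 2 arrays per group. Red points have an adjusted p under 0.05 (20 and 17 genes, all above 0), and STR3 lies farthest right in both panels.

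Between 15 and 45 min after heat 17 of the genes came down, STR3 most. With rich medium and peroxide in 1 fit, these 17 of 37 were higher at 15 than at 45 min and 0 lower, against 6.51% and 10.2% of all genes (16.7% either way). The largest differences were those of STR3 (4.48 ± 0.46, 22.3-fold, adjusted p = 0.00239), SUL1 (2.24 ± 0.60, adjusted p = 0.0467), MUP3 (1.82 ± 0.21), MET16 (1.65 ± 0.16) and MET1 (1.53 ± 0.10). The difference of STR3 was again the largest positive difference of all 5449 genes. The methylenetetrahydrofolate reductase gene MET13 (1.43 ± 0.32), MET6 (1.39 ± 0.35) and SAM2 (0.90 ± 0.23), which did not pass against untreated cells, passed here. Leaving out an array moved the count to 9 (15 min in peroxide after heat), 8 (15 min in rich medium after heat) or 8 (45 min in rich medium after heat). All 11 genes that rose against untreated cells were among the 17, and both comparisons use the same 15 min arrays.

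Single arrays, with no test, show the direction of change in each medium. MET17, near or below background throughout, is included in the counts of genes going up or down. In rich medium after heat 34 of 37 genes were lower at 45 than at 15 min, 14 of them by at least 2-fold, against 44.9% and 2.99% of all genes. In rich medium after KCl 24 of 37 were higher at 45 than at 15 min, 9 of them by at least 2-fold, against 50.7% and 2.35% of all genes. In peroxide after heat 26 of 37 were lower at 45 than at 15 min, 5 of them by at least 2-fold, against 46.5% and 2.94% of all genes. The other 11 went up there, SAM3 most (1.11), then MMP1 (0.86), MET10 (0.60), MET3 (0.58) and MHT1 (0.49). In peroxide after KCl 23 of 37 went up over the same time, 7 of them by at least 2-fold, against 50.9% and 2.94% of all genes. From 45 min of heat to 15 min in rich medium 32 of 37 genes went up and 9 by at least 2-fold, against 44.2% and 8.88% of all genes. From heat to 15 min in peroxide 27 went up and 7 by at least 2-fold, against 42.6% and 10.3%. From 45 min of KCl 22 went up and 15 down in either medium. Of all genes 42.8% went up in rich medium and 43.1% in peroxide. In rich medium 5 went up by at least 2-fold and 2 (MET13 and MET28) down, against 11.2% and 13.3% of all genes, and in peroxide 5 up and 3 down, against 11% and 11.5%. After KCl the 2-fold rises lie near the shares of all genes, and the 2-fold falls lie below them.

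Whether the change from 15 to 45 min differed between the stresses was tested directly, in a comparison added after the values were seen. For 5 of 37 genes the change after heat lay below that after KCl and for 0 above it, against 0.863% and 2.2% of all genes (3.06% either way). They were STR3 (-5.58 ± 0.64, adjusted p = 0.00852), MUP3 (-1.79 ± 0.29), MET5 (-1.72 ± 0.22), MET1 (-1.67 ± 0.14) and SUL2 (-1.04 ± 0.15). The median over the 37 was -0.97 and over all genes 0.01. Without the array of 45 min in peroxide after heat the count was 14, and without that of 15 min in rich medium after KCl it was 2.

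The arrays at 15 min after KCl shared the untreated arrays with those after heat when set against untreated cells. There 3 of 37 genes rose and 7 fell, against 16.3% and 22.2% of all genes (38.5% either way). At 27.0% either way, the 37 passed less often than all genes. MMP1 (-2.45 ± 0.50), MHT1 (-1.71 ± 0.48), MET2 (-1.23 ± 0.36), SAM1 (-1.18 ± 0.16) and MET5 (-0.96 ± 0.15) fell, as did HOM2 and HOM6 by less. STR2 (0.64 ± 0.14), MET16 (0.61 ± 0.16) and the methylenetetrahydrofolate reductase gene MET12 (0.48 ± 0.11) rose. The count of 10 became 2 without either untreated array, 4 without the peroxide array and 6 without the rich medium array at 15 min after KCl.

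Set against all other 20 arrays together, the 2 arrays at 15 min after heat gave no call for the 37 genes. The limma count was 0 of 37 (9 at an unadjusted p under 0.05), and 0.0367% of all genes passed (0.0184% higher and 0.0184% lower). The 20 others hold all stresses and times. The median difference was 0.42 for the 37 and -0.04 for all genes. SUL1 (1.93 ± 0.44, adjusted p = 0.0656) and STR3 (2.83 ± 0.90, adjusted p = 0.17) had the largest positive values. With the arrays of heat and KCl themselves left out of the others, 2 of the 37 passed, against 3.58% of all genes.

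During heat itself, compared with untreated cells at 30 and 45 min, 4 of 37 genes rose and 8 fell, against 27.5% and 22.4% of all genes (49.9% either way). MUP3 (1.38 ± 0.46, adjusted p = 0.0411), the regulator MET28 (1.31 ± 0.42), SUL1 (at least 2.07-fold, adjusted p = 0.00645) and MET3 (0.46 ± 0.12) rose. SAM1 fell most (-2.13 ± 0.50, adjusted p = 0.0111), then MMP1 (-2.02 ± 0.39), the S-adenosylmethionine permease gene SAM3 (-0.86 ± 0.14), MET8 (-0.80 ± 0.16) and HOM3 (-0.71 ± 0.23). SAM2, at -0.33 and 0.33 on the heat arrays, did not pass. Without untreated array a, untreated array b or the heat array at 30 min fewer of the 37 and fewer of all genes passed. With the 4 arrays of both groups alone 19 of 37 passed (10 higher and 9 lower), against 56.2% of all genes. With quantile normalization only 1 gene rose (MET3), and SUL1 alone rose in values from the authors' deposited fold changes, while 8 fell under each. Markers of cell type moved in heat too. Of 6 a-specific genes 5 fell (median -0.95) and of 5 meiosis genes 3 rose, and their part in the result was not tested.

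KCl was set against the same untreated arrays, so the comparisons are not independent. In KCl 4 of 37 genes rose and 13 fell, against 30.2% and 26% of all genes (56.2% either way), and the median difference was -0.21, with 0.03 over all genes. MET28 (2.02 ± 0.42, adjusted p = 0.00535), MET13 (4-fold, SE 0.30 on the log2 scale, adjusted p = 0.0013), SUL1 (at least 1.77-fold, adjusted p = 0.0121) and MET3 (0.54 ± 0.12) rose. With a further quantile normalization the log2 difference of SUL1 was -0.0024. In KCl 5 of 6 a-specific genes fell and 3 of 5 meiosis genes rose, and their part in the result was not tested. SAM1 (-2.18 ± 0.50), MMP1 (-2.02 ± 0.39), MET6 (-1.78 ± 0.22), MHT1 (-1.57 ± 0.17) and MET8 (-1.55 ± 0.16) fell most, each with an adjusted p of 0.00854 or less. The other 8 that fell were HOM3 (-1.49 ± 0.23), CYS3, SAM3, MET5, CYS4, MET22, MET14 and MET31. Without either untreated array the count of 17 became 11.

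Genes of the same enzyme activity could lie far apart in KCl. MET13 was at 2.18 and 1.82 in KCl, where MET12, which encodes the same activity, was at -0.34 and 0.35. MET13 then stood at -0.46 and -0.47 in rich medium and at 0.28, -0.30, -0.98 and -0.27 in peroxide after KCl. The 2 KCl arrays were the highest of all 22 for MET13.

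Heat and KCl were compared directly at 30 and 45 min, also a comparison added after the values were seen. In heat 7 of 37 genes were higher and 1 lower than in KCl, against 15.4% and 15.2% of all genes (30.6% either way). STR3 (2.47 ± 0.70, adjusted p = 0.0348), MET6 (1.99 ± 0.22), MET5 (1.12 ± 0.15), CYS3 (1.10 ± 0.16), MHT1 (0.90 ± 0.17), HOM3 (0.78 ± 0.23) and MET8 (0.75 ± 0.16) were higher, and MET13 (-1.21 ± 0.30, adjusted p = 0.0234) was lower. Without the heat array at 45 min the count of 8 became 4.

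**Figure D4:**
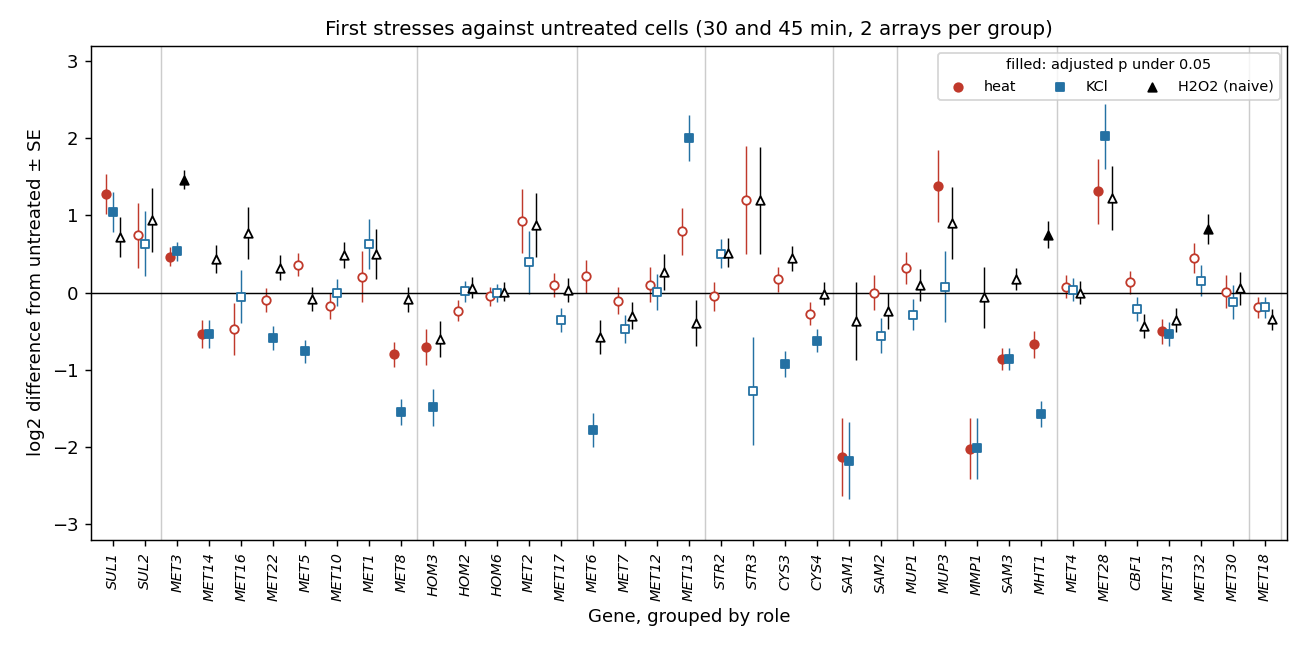
Log2 difference from untreated cells ± SE (y axis, limma, 30 and 45 min, 2 arrays per group) for the 37 genes grouped by role (x axis). Circles are heat, squares KCl and triangles naive peroxide, and filled symbols have an adjusted p under 0.05; SAM1 and MMP1 lie near -2 in heat and KCl, and MET13 near 2 in KCl.

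In naive peroxide at 30 and 45 min 3 of 37 genes rose and 0 fell, against 11.2% and 7.18% of all genes (18.4% either way). MET3 rose by 1.46 ± 0.12 (2.76-fold, adjusted p = 0.000763), MET32 by 0.82 ± 0.20 and MHT1 by 0.75 ± 0.17. MET3 was at -0.37, 1.49, 1.44 and 0.19 at the 4 times, so it was above the untreated pair at 30 and 45 min and below it at 15 min. Leaving out 1 array left 1 in its group. The count for the 37 then moved either way, and the share of all genes that passed was lower each time. The median difference of the 37 was 0.10, and it was 0.03 without the 30 min array and 0.24 without the 45 min array. With all 4 times in the group 0 of 37 passed, as did 0% of all genes (limma). With the 4 arrays of both groups alone 5 rose and 4 fell, MET6 (-0.58), SAM1 (-0.37), MET31 (-0.36) and MET18 (-0.35), where 38.1% of all genes passed. With time as a term 5 rose and 0 fell, where 15% of all genes passed.

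The 30 min array held the peak of many genes in each peroxide series. In naive peroxide 18 of 37 were highest at 30 min, against 24.9% of all genes. After heat it was 19 of 37, against 17.5%, and after KCl 13 of 37, against 17%. STR3, MET2, MUP3, MET28, MET32, MET1 and SUL2 were among those highest at 30 min in all 3 series. MET16, MET13, MET4 and CBF1 were highest at 15 min in all 3, and 1 array stands behind each time. MET17, which counts among the 18 and the 19, was near background. From 30 to 45 min in peroxide after heat 28 of 37 went down, 8 of them by at least 2-fold, against 44.5% and 1.1% of all genes.

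Peroxide after an earlier stress was compared with naive peroxide over the 4 matched times. After heat 0 of 37 genes passed (limma, 3 at an unadjusted p under 0.05), against 3.34% of all genes (1.54% higher and 1.8% lower). MET30 had the smallest adjusted p, 0.0692, with a difference of 0.32 ± 0.09. Without the 90 min array of peroxide after heat 2 of 37 passed, against 13.2% of all genes. After KCl 0 of 37 passed (8 at an unadjusted p under 0.05), against 0.147% of all genes (0.0184% higher and 0.128% lower), with CYS3 at -0.34 ± 0.09 (adjusted p = 0.131) and MET2 at -0.76 ± 0.29. The naive arrays are common to both comparisons.

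Peroxide was also compared with rich medium at 15 and 45 min after each stress. After heat 0 of 37 passed (1 at an unadjusted p under 0.05, limma) and after KCl 0 of 37 (0 at an unadjusted p under 0.05), against 0.165% of all genes each (0.147% higher and 0.0184% lower after heat, all higher after KCl). STR3 differed by 0.40 ± 1.71 after heat, where peroxide minus rich medium was negative at 15 min and positive at 45 min. The fit gives both stresses the same change from 15 to 45 min. STR3 went down over that time after heat and up after KCl, which adds to its SE. With a level for each earlier stress and time instead, 0 of 37 passed after heat and 0 after KCl. For STR2 the difference was 0.48 ± 0.18 after heat and 0.41 ± 0.18 after KCl.

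The transcripts of the regulators moved unevenly. MET4, the activator, was at -0.04 and 0.18 in heat, 0.07 and -0.09 in rich medium after heat, 0.34, 0.12, -0.08 and -0.21 in peroxide after heat, and 0.12 and -0.05 in KCl. In rich medium after KCl it was at -0.09 and -0.27, in peroxide after KCl at 0.41, 0.10, -0.29 and -0.39, and in naive peroxide at 0.38, 0.10, -0.11 and -0.38. It stayed within 0.42 of the untreated mean on all arrays, and in peroxide it went from above to below it between 15 and 90 min in all 3 series. MET4 passed in none of the 14 comparisons.

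MET28, a bZIP cofactor of Met4, was at 1.62 and 0.9995 in heat, 1.16 and -0.17 in rich medium after heat, and 0.86, 2.38, 0.19 and 0.05 in peroxide after heat. In KCl it was at 2.24 and 1.80, then at -0.06 and 0.50 in rich medium and at 0.59, 1.68, 0.43 and 0.09 in peroxide, and naive peroxide gave 1.69, 1.89, 0.56 and 0.54. MET28 had the widest range of the 6 regulators, 2.55, and at 15 min after heat it rose by 1.01 ± 0.21 against untreated cells (adjusted p = 0.0197).

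MET32 and MET31 encode related zinc finger proteins that bring Met4 to DNA. MET32 was at 0.47 and 0.43 in heat, 1.03 and -0.46 in rich medium after heat, and 0.11, 1.05, 0.09 and -0.06 in peroxide after heat. On the KCl arrays it was at 0.19 and 0.12, then at -0.36 and 0.99 in rich medium and at -0.72, 0.55, 0.39 and -0.01 in peroxide, and naive peroxide gave -0.16, 1.11, 0.54 and 0.28. MET32 was higher at 15 min after heat than after KCl (1.11 ± 0.31, adjusted p = 0.0398). MET31 was at -0.42 and -0.59 in heat, 0.05 and 0.13 in rich medium after heat, and 0.38, -0.24, -0.18 and 0.21 in peroxide after heat. Its other values were -0.35 and -0.72 in KCl, -0.27 and -0.15 in rich medium after KCl, -0.29, -0.24, -0.26 and 0.05 in peroxide after KCl, and -0.15, -0.32, -0.39 and 0.03 in naive peroxide. MET31 fell in heat and in KCl, where MET32 did not pass.

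CBF1, the helix-loop-helix protein that also binds centromeres, was at 0.22 and 0.04 in heat, 0.11 and -0.29 in rich medium after heat, and -0.05, -0.62, -0.37 and -0.29 in peroxide after heat. It was at -0.16 and -0.27 in KCl, -0.24 and -0.33 in rich medium after KCl, -0.28, -0.65, -0.36 and -0.30 in peroxide after KCl, and -0.25, -0.59, -0.28 and -0.33 in naive peroxide. All 3 peroxide series had their lowest CBF1 value at 30 min, where many of the other genes were highest.

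MET30, the F-box subunit that marks Met4 with ubiquitin, was at -0.29 and 0.31 in heat, 0.67 and 0.18 in rich medium after heat, and 0.54, 0.60, 0.14 and -0.14 in peroxide after heat. It was at -0.18 and -0.08 in KCl, 0.20 and 0.03 in rich medium after KCl, 0.08, 0.14, -0.03 and -0.19 in peroxide after KCl, and -0.03, 0.22, -0.12 and -0.23 in naive peroxide. The 3 arrays of 15 and 30 min after heat were the highest for MET30, and at 15 min it rose by 0.60 ± 0.09 against untreated cells (adjusted p = 0.00599). MET18, an iron-sulfur cluster assembly factor and the last of the 37, passed in none of the 14 comparisons and lay between -0.51 and 0.00.

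Lists of neighbouring pathways set beside the 37 genes differed in how far they moved. At 15 min after heat against 15 min after KCl, 5 of 9 other sulfur transport genes were higher and 1 lower. Of 18 genes of other sulfur compound metabolism 2 were higher and 2 lower there, where 14.2% and 13.4% of all genes were. At 15 min after heat 4 of 9 other sulfur transport genes rose against untreated cells and 1 fell, where 9.69% and 13.1% of all genes did. SEO1, a putative permease gene, was at 4.04 at 15 min in rich medium after heat and rose by 3.24 ± 0.49 (adjusted p = 0.00706), and the amino acid permease gene AGP3 rose by 1.52 ± 0.34. Of 18 genes of other sulfur compound metabolism 5 rose and 3 fell, among them PDC6, a pyruvate decarboxylase poor in sulfur amino acids (1.01 ± 0.16), DUG3, of glutathione breakdown (0.79 ± 0.11), and IRC7, a beta-lyase (-1.57 ± 0.24). Of 19 Gcn4 and amino acid synthesis genes outside sulfur 4 rose and 1 fell, with ARG3 at 2.94 ± 0.28 and ARG1 at 1.68 ± 0.16, both of arginine synthesis. Of 9 folate genes 1 rose and 1 fell, MTD1 (1.09 ± 0.17) and SHM1 (-0.54 ± 0.09), of 10 genes of methylthioadenosine salvage and polyamines 0 rose and 2 fell, of 5 of the threonine branch 0 rose and 1 fell, and of 5 of the SCF ubiquitin ligase core 0 passed (1 at an unadjusted p under 0.05, limma).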

How the data were processed

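Each array's log2 level for 10928 probe sets was deposited by the authors. RMA is named in the submitters' processing notes, with its version not given in the sources used here. The authors also deposited log2 fold changes against time 0 for 5900 probe sets, used only as an alternative source. Probe sets naming exactly 1 S. cerevisiae gene were joined through the array's annotation (brightest kept for 47 genes with several), leaving 5449 genes, used without filter or rescaling. No batch is given in the labels, and the number of arrays limits the precision.

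All tests used limma (version 3.58.1, R 4.3.3, empirical Bayes). P-values were adjusted by the Benjamini-Hochberg method across the 5449 genes, with 0.05 as threshold. Errors are limma standard errors. First stresses against untreated cells shared a fit of 8 arrays with 1 level per group. Values at 15 and 45 min after a stress shared a fit of 10 arrays (with the untreated pair) that has levels for stress and time and a term for the medium. Peroxide series were fitted on 12 arrays, and peroxide against rich medium on 8, with terms for group and time. The time terms are common to all groups of a fit. Early recovery from heat against all others used 22 arrays at 2 levels. Alternatives changed the normalization, source table, filter, fold minimum, model terms and arrays. Bounds such as "at least 5.33-fold" take background in place of a lower level. The fits were tested on simulated data.

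The 37 genes and the other lists were chosen with earlier results of these data known. Any of the 37 may be named. Values on every array are given for the 12 genes with the largest difference between early recovery from heat and from KCl, among those passing there or against untreated cells, and for the 6 regulators. Other comparisons name up to 5 passing genes each way first, and other lists up to 4 each. The tests of heat against KCl and of the change from 15 to 45 min were added after the values were seen. Sequences and coordinates were not used here.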

Additional observations from a re-analysis of the deposited data

Results flagged for a closer look

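For each of the 37 genes the 4 arrays of a peroxide series were searched for an array far from the other 3. Of 111 such groups 3 had one, and chance gives about 1 in 20 groups. They were SAM3 at 15 min in peroxide after heat (log2 ratio -0.75), MET32 at 30 min in peroxide after heat (1.05) and MET31 at 90 min in peroxide after KCl (0.048). The 4 arrays differ in time, so a far array may be a time of change.

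Tested differences between the heat and the KCl arm were found for 20 genes at 15 min after the stress. As log2 differences, heat minus KCl, they were STR3 3.25, MMP1 3.17, MHT1 2.65, MET2 1.97, MET5 1.52, MET1 1.27, MET6 1.16, SAM1 1.12, MET32 1.11, MET10 0.99, MUP3 0.98, MUP1 0.87, SUL2 0.86, MET28 0.75, MET16 0.66, MET8 0.61, CYS3 0.55, MET31 0.49, MET30 0.46 and CBF1 0.29. During the stresses themselves 8 genes differed: STR3 2.47, MET6 1.99, MET5 1.12, CYS3 1.10, MHT1 0.90, HOM3 0.78, MET8 0.75 and MET13 -1.21. In the change from 15 to 45 min 5 differed: SUL2 -1.04, MET1 -1.67, MET5 -1.72, MUP3 -1.79 and STR3 -5.58. The comparisons of the stresses themselves and of the change were added after the values were seen.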

How the results depend on the processing

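Of 6719 gene values under the alternatives, 5976 kept direction and side of the threshold, 334 lost a call, 98 gained one, 310 uncalled values changed sign, and 1 called value reversed, SUL1 in KCl against untreated (-0.0024 with quantile normalization). Of 185 member counts 135 stayed within 1.5 times the reported one. The 135 include every count of 0 that stayed 0 in the comparisons with no call, so they do not measure how stable the calls were. A 2-fold minimum gave 0 calls for heat, peroxide, early after heat, early after KCl, early after heat against early after KCl, and heat against KCl, 4 for KCl, and 1 each for 15 against 45 min after heat and for the change from 15 to 45 min. Without a term for the medium the counts were 6 for early after KCl, 11 for early heat against early KCl, 11 for 15 against 45 min after heat and 2 for the change. Leaving out the dimmest 25% of genes gave 6 for early after heat and 11 for 15 against 45 min. With only both groups' arrays heat gave 19 (10 higher, 9 lower) and peroxide 9 (5 higher, 4 lower), against 56.2% and 38.1% of all genes. With all 4 times peroxide gave 0, as it did over all genes. A term for 30 or 45 min, added after seeing the data, gave 5 for peroxide and moved the counts for heat (14), KCl (19) and heat against KCl (9) by less than 1.5 times. Early heat against early KCl gave 12 without the untreated arrays. Against all others, early after heat gave 1 with quantile normalization, 1 from the authors' fold-change table and 2 without the heat and KCl arrays, and that table gave 9 for the change.

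Leaving out 1 array gave 3 to 8 for heat, 11 to 17 for KCl, 1 to 7 for peroxide, 3 to 10 for early after heat, 2 to 6 for early after KCl, 9 to 13 for early heat against early KCl, 8 to 14 for 15 against 45 min after heat, 0 to 2 for peroxide after heat against naive, 4 to 8 for heat against KCl and 2 to 14 for the change. Arrays of different groups share times but no replicate numbers in the labels, so matching was by time only, as a term in the peroxide fits and in the added fit above. An arm left with 1 array was assumed to vary like the other groups. Leaving out 1 array also lowered the share of all genes that passed in each comparison with untreated cells. The same held for early heat against early KCl and for 15 against 45 min after heat.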
